A study of Mus musculus with 10 samples.

Results

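Collagen chains are modified, folded and exported in the endoplasmic reticulum, trimmed at their ends outside the cell and then crosslinked into fibres, and each of these steps has its own set of enzymes and chaperones. The 32 genes described here encode those proteins: the prolyl and lysyl hydroxylases, the glycosyltransferases, the collagen chaperones and export receptor, the procollagen C-proteinases with their enhancers, and the lysyl oxidases with other proteins that build or stabilise the matrix. They were chosen by gene symbol, and all 32 were found among the 56691 genes of the deposited table. In fat, this matrix surrounds the adipocytes, and it is made mainly by fibroblasts and adipocyte progenitors, with a contribution from the adipocytes themselves.

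RNA came from visceral fat of 10 male mice aged 10 weeks that had 8 weeks of chow, with 1 library per mouse. The 5 aADM2-tg libraries (tg1 to tg5) are from mice that overexpress adrenomedullin 2 in adipose tissue, and the 5 WT libraries (WT1 to WT5) are from wild-type mice on the same diet. Neither the promoter that drives the transgene nor the strain is stated in the labels. The counted reads numbered 16030435 to 18214504 per library, and 3 counts correspond to 0.165 to 0.187 CPM (counts scaled to a common library total).

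The labels call the samples mature adipocytes, and the adipocyte gene Adipoq had 36360 to 61906 counts in every library. RNA of other cells was present as well: 8 macrophage markers summed to 513 to 917 CPM in aADM2-tg and to 993 to 1214 CPM in WT, with 4 of the 8 called lower, and 13 markers of duct and ciliated epithelium summed to 5.46 to 309 CPM in aADM2-tg and to 5.43 to 215 CPM in WT. The duct RNA was high in tg2 and in WT2 to WT5 and low in the other 5 libraries, among them WT1. The table has a pair of header lines that assign its columns to opposite groups. Directions below follow the sample labels, with which the lower of these lines goes. Adm2 itself had 0 counts in the 5 aADM2-tg libraries and in 4 WT libraries and 2 counts in WT3, so its counts do not settle which line is right, and the overexpression cannot be seen in them. In RNA of whole tissue, fewer cells of a type and less RNA per cell cannot be told apart.

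In aADM2-tg fat 3 of the 4 genes of propeptide removal and 3 of the 7 of crosslinking and matrix assembly were lower, led by Tll1, Loxl2, Pcolce and Lox. Also lower were 3 of the 6 genes of the prolyl 3-hydroxylase complex, 3 of the 6 chaperone and export genes, and 1 of the 5 lysyl hydroxylase and glycosyltransferase genes. The higher genes were Tgm2 and both tested catalytic subunits of prolyl 4-hydroxylase. Of the 32 genes 31 had enough counts to be tested, and 13 of these were lower, 3 higher and 15 not called, where called means an adjusted p under 0.05. Among all 16591 tested genes 26.5% were called, 12.7% lower and 13.8% higher, against 41.9% lower and 9.68% higher of the tested collagen-modifying genes. The median log2 change was -0.13 over the 31 genes and 0.02 over all tested genes. The groups were apart, with no shared range, in 12 of the 13 lower genes and in 1 of the 3 higher ones. Of the 31 tested genes, called or not, 13 were apart in the lower direction and 1 in the higher. Over all tested genes 9.75% were apart in the lower direction and 7.33% in the higher. The changes were moderate in size, and in 1 called gene, Tll1, the fitted change reached 2-fold. Levels are given as FPKM, which scales reads by exonic length and library total, and each ± is the SD over 5 libraries. Each log2 change is that of aADM2-tg over WT as fitted by edgeR's quasi-likelihood test to counts scaled between libraries, with Benjamini-Hochberg adjusted p.

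Correcting the libraries for trends with gene length and GC content left 8 of the genes lower and 2 higher, where 5.29% of all genes were lower and the median of all genes stood at 0.145. In this fit 6 genes were no longer called. The log2 change of P3h1 (-0.35, adjusted p = 0.0623) and of Tgm2 (0.30, adjusted p = 0.0535) stayed close to the uncorrected value with a larger SE (0.125 against 0.0859 for P3h1). The change was smaller for Bmp1 (-0.31, adjusted p = 0.0511), Plod2 (-0.23, adjusted p = 0.206), Fkbp14 (-0.075, adjusted p = 0.531) and Mia3 (-0.05, adjusted p = 0.697). The correction turned the split over all genes to 864 lower and 2724 higher, against 2107 lower and 2285 higher without it. With a robust trend, added after the data were seen, 11 were lower and 3 higher, where 9.78% of all genes were lower, and Plod2 (-0.36, adjusted p = 0.0760) and Mia3 (-0.15, adjusted p = 0.125) were no longer called.

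**Figure D1:**
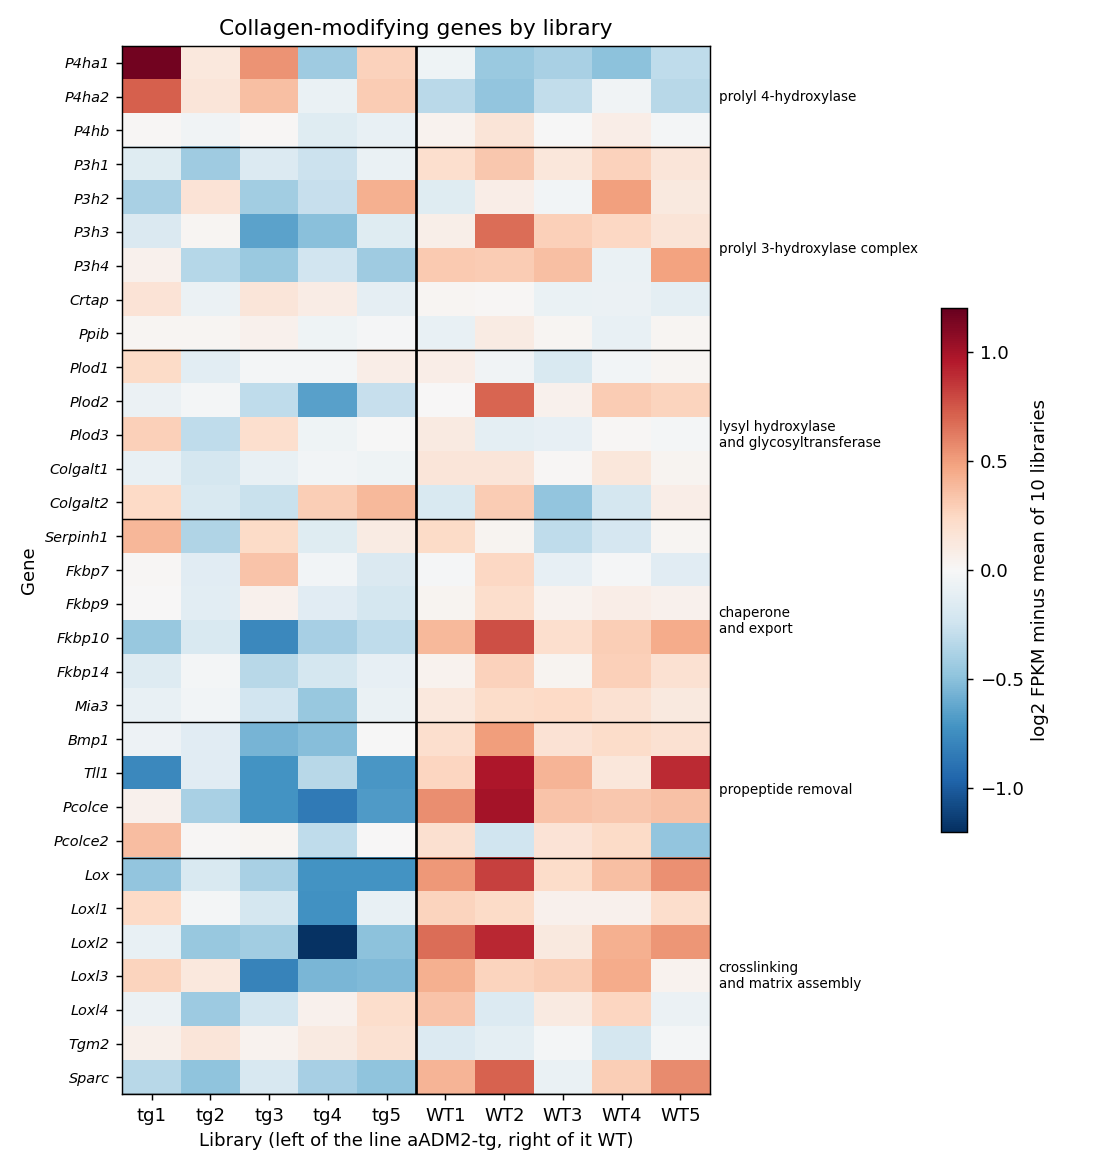
Level of the 31 tested genes in each library, as log2 FPKM minus the gene's mean over the 10 libraries (colour), with genes in rows by role and libraries in columns, aADM2-tg left of the line and WT right of it. Lox, Loxl2, Pcolce and Fkbp10 are below their mean in most aADM2-tg libraries and above it in the 5 WT libraries, and P4ha1 and P4ha2 are highest in tg1.

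Lysyl oxidases start the crosslinking of collagen and elastin by oxidising lysine residues, a reaction that needs copper. Lox (ENSMUSG00000024529, chromosome 18, 52649139 to 52662939, minus strand, in the file's coordinates, whose build no label names), the founding member of the family, had 11.1, 13.6, 11.8, 9.39 and 9.39 FPKM in tg1 to tg5, against 22.1, 27.1, 17.9, 19.8 and 22.6 FPKM in WT1 to WT5. The highest aADM2-tg library was below the lowest WT library, and the means were 11.04 ± 1.76 FPKM in aADM2-tg and 21.9 ± 3.46 FPKM in WT. For Lox the log2 change was -0.93 (SE 0.127, adjusted p = 0.00139). Loxl2, a family member with scavenger receptor domains (chromosome 14, 69846517 to 69933283, plus strand), stood at 8.24, 6.396, 6.56, 3.86 and 6.24 FPKM in tg1 to tg5, against 14.0, 16.4, 9.50, 11.8 and 12.6 FPKM in WT1 to WT5. These values did not overlap either, with means of 6.26 ± 1.56 FPKM in aADM2-tg and 12.9 ± 2.57 FPKM in WT. For Loxl2 the log2 change was -0.98 (SE 0.193, adjusted p = 0.00591). Loxl1, known for its part in elastic fibres, had 15.8, 13.2, 11.6, 8.11 and 12.6 FPKM in tg1 to tg5, against 16.1, 15.7, 13.9, 14.0 and 15.5 FPKM in WT1 to WT5, and its groups overlapped (log2 change -0.24, SE 0.144, adjusted p = 0.246, 95% interval of the log2 change -0.55 to 0.08). Loxl3 was at 1.54 ± 0.510 FPKM in aADM2-tg and 2.24 ± 0.241 FPKM in WT (log2 change -0.49, SE 0.198, adjusted p = 0.0918) and Loxl4 at 0.835 ± 0.141 FPKM in aADM2-tg and 0.951 ± 0.140 FPKM in WT. For Loxl4 the log2 change was -0.13 (SE 0.185, adjusted p = 0.636). Loxl3 lies opposite Htra2, which had 3064 counts over all libraries against 1506 for Loxl3, so its reads are uncertain where strand was not used in counting.

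Shares within the family, chosen after the values were seen and not tested, were compared as a description. Summed over the 5 members, the lysyl oxidase FPKM were 38.2, 35.8, 31.7, 23.5 and 30.5 in tg1 to tg5, against 55.8, 62.2, 44.6, 49.1 and 53.4 in WT1 to WT5. Loxl1 made up 34.5 to 41.5% of this sum in aADM2-tg and 25.3 to 31.3% in WT, with no overlap. Lox made up 29.0 to 39.9% in aADM2-tg and 39.7 to 43.6% in WT, where tg4 reached into the WT range, and Loxl2 16.4 to 21.6% in aADM2-tg and 21.3 to 26.4% in WT. Loxl1 was the most abundant member in tg1 and tg5, and Lox in the other 3 aADM2-tg libraries and in the 5 WT libraries.

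Sparc and Tgm2, which also act on the finished matrix, went opposite ways. Sparc, a secreted collagen-binding glycoprotein, was the most abundant of the 32 genes, at 761, 689, 842, 727 and 685 FPKM in tg1 to tg5, against 1270.1, 1567, 909.9, 1179.8 and 1419 FPKM in WT1 to WT5. The highest aADM2-tg value, in tg3, was below the lowest WT value, in WT3, with means of 741 ± 64.6 FPKM in aADM2-tg and 1269 ± 249 FPKM in WT. For Sparc the log2 change was -0.71 (SE 0.147, adjusted p = 0.00726). Tgm2 encodes tissue transglutaminase, an enzyme that links glutamine to lysine side chains, and had 49.7, 52.7, 49.0, 51.4 and 54.1 FPKM in tg1 to tg5, against 42.5, 43.8, 46.8, 41.2 and 46.9 FPKM in WT1 to WT5. The Tgm2 difference was small and without overlap, at 51.4 ± 2.11 FPKM in aADM2-tg and 44.2 ± 2.54 FPKM in WT. For Tgm2 the log2 change was 0.28 (SE 0.0582, adjusted p = 0.00767). Tgm2 overlaps Rprd1b on the other strand, which had 16.2% as many counts.

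**Figure D2:**
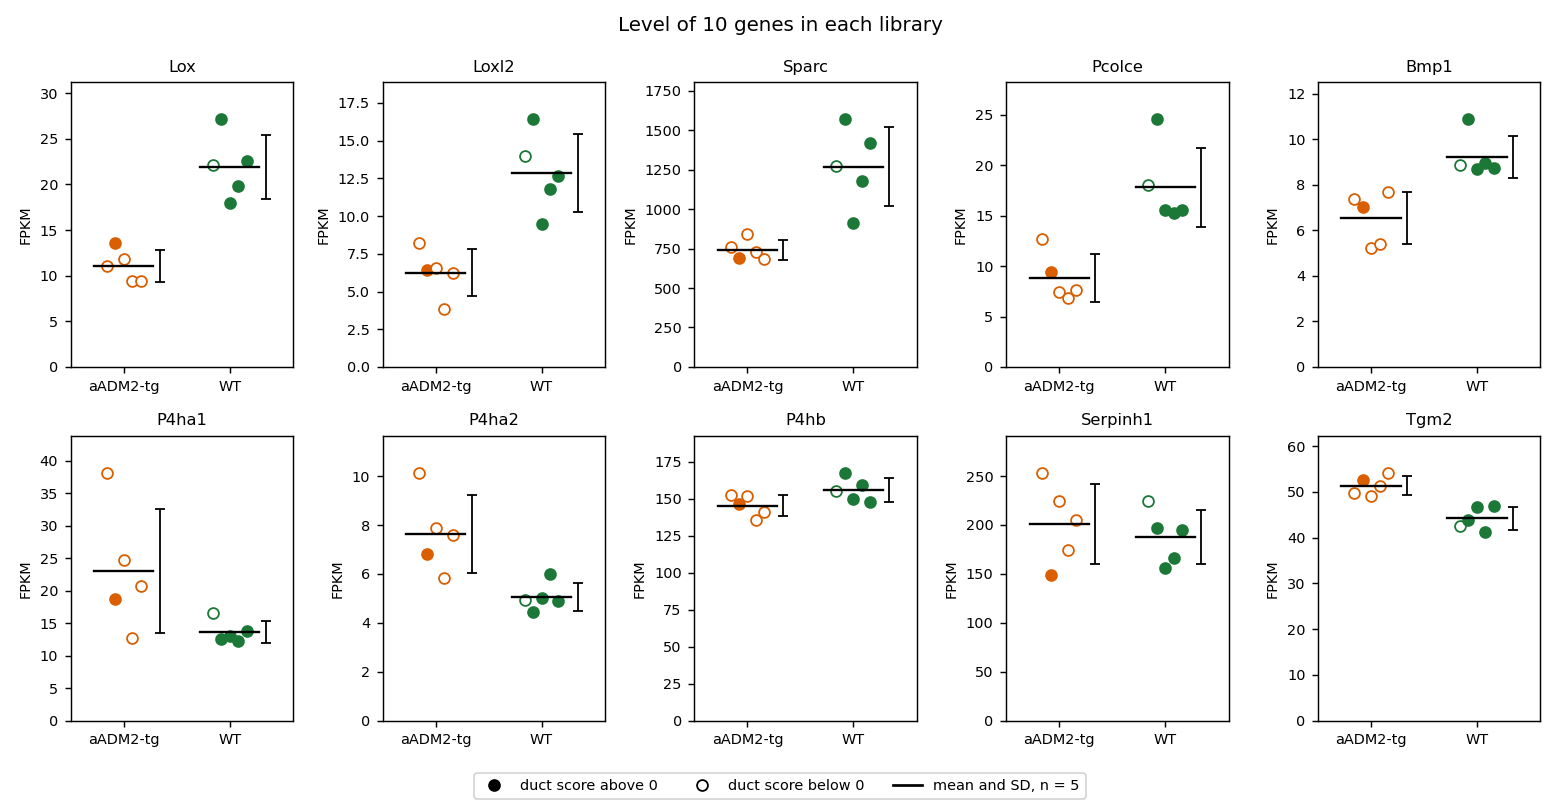
FPKM of 10 genes in each library (points), with the mean (line) and SD (bar) of 5 libraries per group, aADM2-tg left and WT right in each panel. Filled points are the libraries with duct RNA (tg2 and WT2 to WT5). Lox, Loxl2, Sparc, Pcolce and Bmp1 show no overlap with aADM2-tg lower, Tgm2 none with aADM2-tg higher, and P4ha1, P4ha2, P4hb and Serpinh1 overlap.

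Before fibrils form, the C-terminal propeptide of procollagen is cut off by proteinases of the Bmp1 and tolloid group, which the Pcolce proteins bind to the substrate and enhance. Of these 4 genes 3 were lower and 0 higher. Pcolce, the main enhancer (chromosome 5, 137603365 to 137612046, minus strand), had 12.7, 9.38, 7.44, 6.81 and 7.65 FPKM in tg1 to tg5, against 18.01, 24.5, 15.5, 15.3 and 15.6 FPKM in WT1 to WT5. Its aADM2-tg values were all below the WT values, and the means were 8.80 ± 2.39 FPKM in aADM2-tg and 17.8 ± 3.93 FPKM in WT. For Pcolce the log2 change was -0.95 (SE 0.181, adjusted p = 0.00494). Bmp1, the C-proteinase itself, had 7.36, 7.004, 5.22, 5.40 and 7.67 FPKM in tg1 to tg5, against 8.85, 10.9, 8.70, 8.96 and 8.72 FPKM in WT1 to WT5. The groups were apart for Bmp1 as well, at 6.53 ± 1.14 FPKM in aADM2-tg and 9.22 ± 0.928 FPKM in WT. For Bmp1 the log2 change was -0.44 (SE 0.103, adjusted p = 0.0122). Tll1, a related proteinase of low level here, had 0.348, 0.542, 0.362, 0.474 and 0.369 FPKM in tg1 to tg5, against 0.714, 1.17, 0.792, 0.655 and 1.11 FPKM in WT1 to WT5, from 45 to 161 counts per library. The highest aADM2-tg value, in tg2, was below the lowest WT value, in WT4, with means of 0.419 ± 0.0852 FPKM in aADM2-tg and 0.887 ± 0.235 FPKM in WT. For Tll1 the log2 change was -1.02 (SE 0.201, adjusted p = 0.00592). Pcolce2, the second enhancer, was at 3.68 ± 0.621 FPKM in aADM2-tg and 3.59 ± 0.731 FPKM in WT (log2 change 0.10, SE 0.166, adjusted p = 0.690) with a 95% interval of -0.27 to 0.46.

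Prolyl 4-hydroxylase makes the 4-hydroxyproline that keeps the collagen helix stable at body temperature. The enzyme is a tetramer of catalytic alpha subunits (P4ha1, P4ha2 or P4ha3) and beta subunits (P4hb, also known as protein disulfide isomerase). P4ha1, the usual catalytic subunit (chromosome 10, 59159118 to 59209126, plus strand), had 38.1, 18.6, 24.8, 12.7 and 20.7 FPKM in tg1 to tg5, against 16.5, 12.6, 13.1, 12.2 and 13.8 FPKM in WT1 to WT5. It was highest in tg1 and within the WT range in tg4, with means of 23.0 ± 9.49 FPKM in aADM2-tg and 13.6 ± 1.73 FPKM in WT. For P4ha1 the log2 change was 0.81 (SE 0.251, adjusted p = 0.0357). The P4ha1 call ended without any 1 of tg1, tg3, WT2, WT3, WT4 or WT5, with adjusted p of 0.0162 to 0.0887 over 10 fits that each drop 1 library. P4ha2, the second catalytic subunit (chromosome 11, 53990921 to 54022491, plus strand), had 10.1, 6.801, 7.87, 5.82 and 7.59 FPKM in tg1 to tg5, against 4.92, 4.43, 5.02, 5.98 and 4.88 FPKM in WT1 to WT5. Again tg1 was highest, tg4 fell below WT4, and the means were 7.64 ± 1.603 FPKM in aADM2-tg and 5.05 ± 0.570 FPKM in WT. For P4ha2 the log2 change was 0.66 (SE 0.145, adjusted p = 0.00899). P4ha3 was hardly detected, with 2 counts in tg3, 5 in WT2 and 0 in the other 8 libraries, too few to show a difference (p = 1 by an exact permutation test, two-sided, on log2 of CPM plus 1).

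The partner subunit did not pass the test. P4hb, which also serves as a general oxidoreductase of the endoplasmic reticulum, was at 145 ± 7.14 FPKM in aADM2-tg and 156 ± 7.88 FPKM in WT (log2 change -0.04, SE 0.0683, adjusted p = 0.720), with a 95% interval of -0.19 to 0.11. In a ratio that was likewise not tested, per 100 FPKM of P4hb the 3 alpha subunits together had 31.6, 17.4, 21.5, 13.7 and 20.03 FPKM in tg1 to tg5, against 13.8, 10.2, 12.1, 11.4 and 12.7 FPKM in WT1 to WT5. Only tg4 lay within the WT range of this ratio. The share of P4ha2 in the alpha subunits was 21.0 to 31.4% in aADM2-tg and 23.0 to 33.0% in WT, and these ranges overlapped.

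Promoter sequence was at hand from RefSeq (GRCm38.p6) for 21 of the 32 genes. The genes without it include Lox, Loxl2, Plod2, Fkbp10, P3h4 and Bmp1, which were lower, and Tgm2, which was higher. ACGTG is a form of the core found at sites of the hypoxia-inducible factors, and the other form, GCGTG, was not searched. The promoters of P4ha1 and P4ha2 are shown because these genes were higher in aADM2-tg. Those of Sparc, Pcolce and Tll1 are shown as genes that were lower, and that of Serpinh1 as one that was not called. The coordinates are those of GRCm38.p6 and cannot be set beside the positions given from the file. Each line is the 250 bases before the start of the gene, read 5′ to 3′ on the gene's strand, and capitals mark ACGTG or its reverse complement CACGT:
P4ha1 (chr10:59323046-59323295, plus strand): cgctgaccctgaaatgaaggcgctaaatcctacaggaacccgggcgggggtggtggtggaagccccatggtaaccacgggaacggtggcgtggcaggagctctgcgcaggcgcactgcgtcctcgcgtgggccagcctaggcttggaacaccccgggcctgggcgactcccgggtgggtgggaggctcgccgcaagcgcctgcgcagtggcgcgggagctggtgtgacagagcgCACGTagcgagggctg
P4ha2 (chr11:54100674-54100923, plus strand): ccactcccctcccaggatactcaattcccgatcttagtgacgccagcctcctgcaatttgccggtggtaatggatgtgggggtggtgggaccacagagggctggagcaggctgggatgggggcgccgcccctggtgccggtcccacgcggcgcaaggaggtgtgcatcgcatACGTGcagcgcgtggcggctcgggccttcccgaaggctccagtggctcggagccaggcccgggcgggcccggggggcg
Sparc (chr11:55420081-55420330, minus strand): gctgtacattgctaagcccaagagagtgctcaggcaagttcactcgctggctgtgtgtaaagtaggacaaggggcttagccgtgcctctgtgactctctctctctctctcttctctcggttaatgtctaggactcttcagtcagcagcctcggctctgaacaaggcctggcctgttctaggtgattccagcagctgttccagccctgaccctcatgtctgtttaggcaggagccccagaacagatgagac
Pcolce (chr5:137611405-137611654, minus strand): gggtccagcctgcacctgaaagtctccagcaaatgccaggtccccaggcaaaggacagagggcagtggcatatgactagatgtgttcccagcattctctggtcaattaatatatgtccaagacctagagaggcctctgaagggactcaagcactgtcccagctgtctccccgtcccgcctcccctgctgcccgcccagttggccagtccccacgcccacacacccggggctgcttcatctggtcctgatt
Tll1 (chr8:64206009-64206258, minus strand): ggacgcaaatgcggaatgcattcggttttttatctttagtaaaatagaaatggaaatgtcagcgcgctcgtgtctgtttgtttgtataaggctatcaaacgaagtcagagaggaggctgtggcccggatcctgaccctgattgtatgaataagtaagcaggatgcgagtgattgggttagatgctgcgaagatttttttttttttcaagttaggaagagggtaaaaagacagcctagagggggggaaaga
Serpinh1 (chr7:99353240-99353489, minus strand): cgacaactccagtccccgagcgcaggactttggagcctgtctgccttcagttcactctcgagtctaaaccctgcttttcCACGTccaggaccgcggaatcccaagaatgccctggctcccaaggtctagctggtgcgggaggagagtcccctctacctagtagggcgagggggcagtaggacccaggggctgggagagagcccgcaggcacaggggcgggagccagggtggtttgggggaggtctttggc

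ACGTG or its reverse complement stood once in the P4ha1 window, with its first base 16 bases before the start. It stood once in the P4ha2 window at 78 bases before the start and once in the Serpinh1 window at 171 bases. The windows of Sparc, Pcolce and Tll1 held neither ACGTG nor CACGT, and a window without them may still hold the form that was not searched. On either strand, ACGTG was found for 9 of the 21 genes (Fkbp9, Mia3, P3h1, P4ha1, P4ha2, P4hb, Plod3, Ppib and Serpinh1) and for 18.5% of the 27025 genes with a promoter, counting a gene once if any of its windows held it. It was also found for 11 of 27 general folding and carrier genes of the endoplasmic reticulum. These 9 genes include 2 that were higher, 2 that were lower (Mia3 and P3h1, whose windows are not printed) and 5 not called. For 17 of the 21 genes the bases just after the start were found in a known transcript of the gene. The ER stress response element was searched as CCAAT and CCACG with 9 bases between them, on either strand, and its last 4 letters can overlap CACGT. It was found for 0 of the 21 genes, for 0.13% of all genes with a promoter and for 8 of the 27 folding and carrier genes. A match in these letters is a description of the window and not evidence of binding.

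The prolyl 3-hydroxylases modify single prolines, and P3h1 does so in a complex with Crtap and cyclophilin B (Ppib). P3h1, the catalytic part, had 8.07, 6.64, 7.95, 7.45 and 8.43 FPKM in tg1 to tg5, against 10.2, 11.1, 9.80, 10.8 and 9.89 FPKM in WT1 to WT5. The groups did not overlap, with means of 7.71 ± 0.691 FPKM in aADM2-tg and 10.4 ± 0.588 FPKM in WT. For P3h1 the log2 change was -0.36 (SE 0.0859, adjusted p = 0.0126). Its partners were not called: Crtap was at 38.9 ± 3.31 FPKM in aADM2-tg and 36.5 ± 1.56 FPKM in WT (log2 change 0.16, SE 0.0870, adjusted p = 0.198, 95% interval -0.03 to 0.35) and Ppib, a prolyl isomerase, at 19.3 ± 0.548 FPKM in aADM2-tg and 19.1 ± 1.06 FPKM in WT (log2 change 0.08, SE 0.0565, adjusted p = 0.317, 95% interval -0.04 to 0.20). P3h3 and P3h4, which work together with lysyl hydroxylase on collagen, were both lower. P3h3 had 2.83, 3.26, 2.05, 2.26 and 2.90 FPKM in tg1 to tg5, against 3.37, 5.08, 3.89, 3.81 and 3.56 FPKM in WT1 to WT5. The groups were close at tg2 and WT1 and did not overlap, with means of 2.66 ± 0.493 FPKM in aADM2-tg and 3.94 ± 0.670 FPKM in WT. For P3h3 the log2 change was -0.51 (SE 0.128, adjusted p = 0.0162). P3h4 had 4.46, 3.39, 3.15, 3.66 and 3.20 FPKM in tg1 to tg5, against 5.34, 5.32, 5.51, 4.07 and 6.01 FPKM in WT1 to WT5. It overlapped through tg1, which lay above WT4, and the means were 3.57 ± 0.537 FPKM in aADM2-tg and 5.25 ± 0.716 FPKM in WT. For P3h4 the log2 change was -0.49 (SE 0.143, adjusted p = 0.0282), and the call ended without any 1 of tg3, tg4, tg5, WT1, WT3 or WT5 (adjusted p of 0.0178 to 0.0658). P3h2 was low and not called, at 1.38 ± 0.374 FPKM in aADM2-tg and 1.56 ± 0.278 FPKM in WT. For P3h2 the log2 change was -0.12 (SE 0.188, adjusted p = 0.659).

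Lysyl hydroxylases make the hydroxylysines that carry sugars and form stable crosslinks. Plod2, the isoform that acts on the telopeptides at the ends of the chains, had 5.24, 5.42, 4.45, 3.50 and 4.55 FPKM in tg1 to tg5, against 5.53, 8.96, 5.70, 6.804 and 6.63 FPKM in WT1 to WT5. The groups were apart by a narrow margin between tg2 and WT1, and the means were 4.63 ± 0.759 FPKM in aADM2-tg and 6.72 ± 1.37 FPKM in WT. For Plod2 the log2 change was -0.47 (SE 0.134, adjusted p = 0.0254). The Plod2 call ended without any 1 of tg3, tg4, WT2, WT4 or WT5 (adjusted p of 0.0159 to 0.0573). Plod1 and Plod3, which act mainly on the helical part, were not called. Plod1 was at 15.6 ± 1.47 FPKM in aADM2-tg and 15.0 ± 1.00 FPKM in WT (log2 change 0.12, SE 0.0927, adjusted p = 0.350) and Plod3, which also transfers sugars, at 22.8 ± 3.55 FPKM in aADM2-tg and 21.8 ± 1.40 FPKM in WT. For Plod3 the log2 change was 0.13 (SE 0.128, adjusted p = 0.482). Plod3 overlaps Znhit1 on the other strand, which had 23.9% as many counts. Of the lysyl hydroxylase FPKM, Plod2 made up 8.77 to 14.5% in aADM2-tg and 12.2 to 20.3% in WT, and these ranges overlapped.

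The galactosyltransferases add the first sugar to hydroxylysine. Colgalt1, the broadly expressed one, was at 17.8 ± 0.849 FPKM in aADM2-tg and 20.3 ± 0.924 FPKM in WT with no overlap of the FPKM values, and did not pass the test (log2 change -0.13, SE 0.0716, adjusted p = 0.211). It was called lower by limma-trend (log2 change -0.18, adjusted p = 0.0242 with a pseudocount of 1) and among genes with a mean of at least 10 CPM (log2 change -0.17, adjusted p = 0.0462), where 18.9% of the genes tested were lower and 36.8% called in either direction. Colgalt2 was at 0.884 ± 0.175 FPKM in aADM2-tg and 0.775 ± 0.162 FPKM in WT. For Colgalt2 the log2 change was 0.25 (SE 0.199, adjusted p = 0.370).

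**Figure D3:**
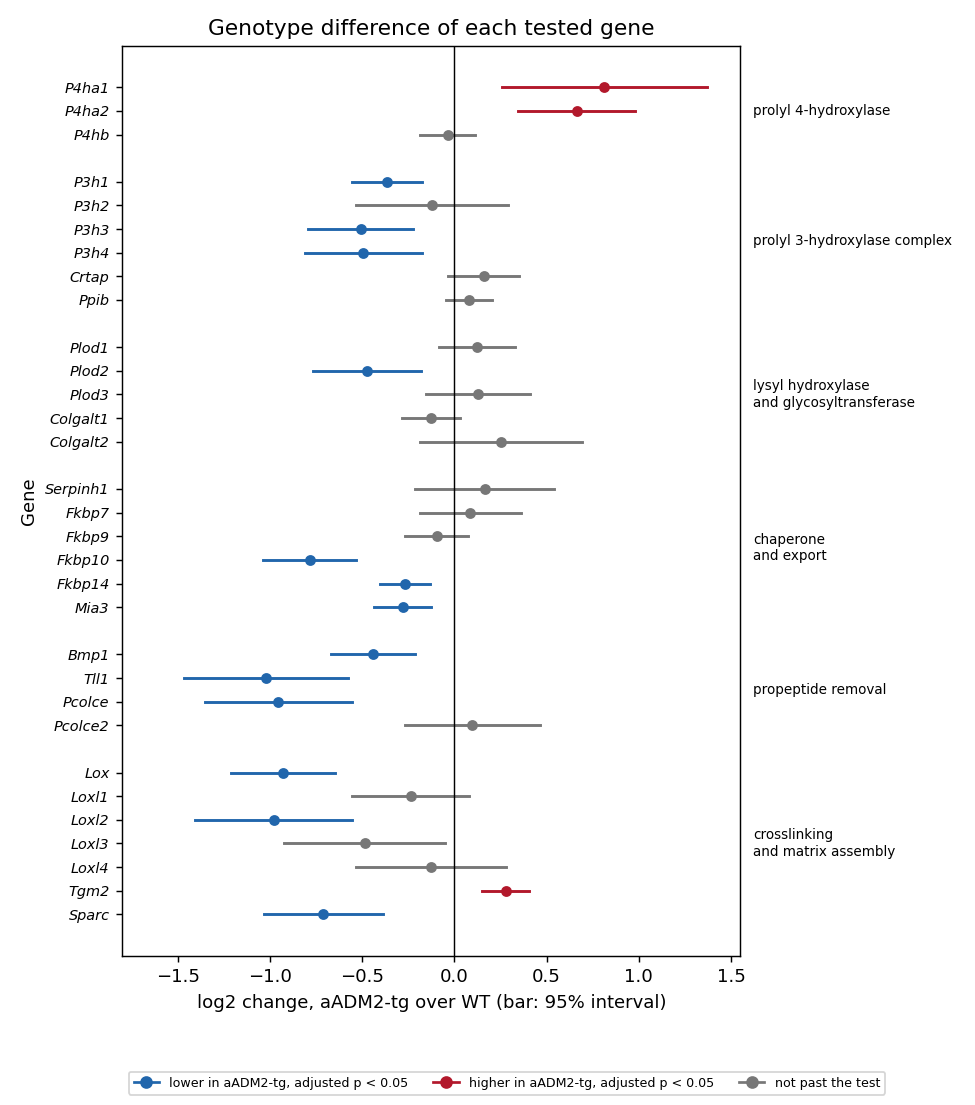
Log2 change of aADM2-tg over WT for the 31 tested genes (points), with 95% intervals (bars), in rows by role. The 3 genes right of 0 that passed the test are P4ha1, P4ha2 and Tgm2, and the 13 left of 0 run from -1.02 for Tll1 to -0.27 for Fkbp14.

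Of the 6 chaperone and export genes, Fkbp10, Fkbp14 and Mia3 were lower and Serpinh1, Fkbp7 and Fkbp9 did not pass the test. Serpinh1, known as Hsp47, binds the folded collagen helix and had 253, 149, 225, 174 and 205 FPKM in tg1 to tg5, against 225, 197, 156, 166 and 195 FPKM in WT1 to WT5. The ranges overlapped widely, at 201 ± 41.0 FPKM in aADM2-tg and 188 ± 27.3 FPKM in WT (log2 change 0.16, SE 0.170, adjusted p = 0.501, 95% interval -0.21 to 0.54). Fkbp9 was at 74.2 ± 5.58 FPKM in aADM2-tg and 83.1 ± 4.28 FPKM in WT (log2 change -0.10, SE 0.0784, adjusted p = 0.385) and Fkbp7 at 22.4 ± 3.38 FPKM in aADM2-tg and 22.2 ± 2.42 FPKM in WT (log2 change 0.09, SE 0.125, adjusted p = 0.632), both prolyl isomerases of the endoplasmic reticulum. Fkbp10, or FKBP65, an isomerase tied to telopeptide hydroxylation, had 4.70, 5.67, 3.76, 4.88 and 5.22 FPKM in tg1 to tg5, against 8.39, 11.02, 7.39, 7.90 and 8.75 FPKM in WT1 to WT5. No aADM2-tg value reached the lowest WT value, and the means were 4.85 ± 0.7097 FPKM in aADM2-tg and 8.69 ± 1.40 FPKM in WT. For Fkbp10 the log2 change was -0.78 (SE 0.115, adjusted p = 0.00183). Fkbp14, or FKBP22, had 7.15, 7.82, 6.34, 6.88 and 7.45 FPKM in tg1 to tg5, against 8.23, 9.64, 8.16, 9.74 and 9.03 FPKM in WT1 to WT5. The groups were apart between tg2 and WT3, with means of 7.13 ± 0.560 FPKM in aADM2-tg and 8.96 ± 0.749 FPKM in WT. For Fkbp14 the log2 change was -0.27 (SE 0.0615, adjusted p = 0.0110). Mia3, or TANGO1, the receptor that loads procollagen into export carriers, had 19.1, 19.8, 17.3, 14.8 and 19.2 FPKM in tg1 to tg5, against 22.1, 23.6, 23.8, 22.9 and 22.0 FPKM in WT1 to WT5. It was lowest in tg4, the groups did not overlap, and the means were 18.1 ± 2.04 FPKM in aADM2-tg and 22.9 ± 0.850 FPKM in WT. For Mia3 the log2 change was -0.28 (SE 0.0695, adjusted p = 0.0154).

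Fkbp10 and P3h4, both lower, are neighbours on chromosome 11. The file places P3h4 at 100299282 to 100305662 on the minus strand and Fkbp10 at 100306523 to 100315650 on the plus strand, so that the genes run away from each other with 860 bases between their starts. Some of the genes overlap others in position: Fkbp10 overlaps Nt5c3b on the other strand with 68.9% as many counts, and Fkbp14 overlaps Plekha8 with 62.0%. Whether reads were shared between such genes was not tested. In all, 6 of the 32 genes overlap another gene with at least 10% of their counts, namely Loxl3, Plod3, P3h2, Fkbp10, Fkbp14 and Tgm2.

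Collagen chains are the substrates of these enzymes. Of 44 collagen chain genes 32 were tested, and 17 were lower, 0 higher and 15 not called. Of all tested genes 12.7% were lower and 13.8% higher. The chains had a median log2 change of -0.97. The 4 with the smallest adjusted p were Col6a1 (68.3 ± 7.34 FPKM in aADM2-tg and 171 ± 17.8 FPKM in WT, log2 change -1.25, SE 0.106, adjusted p = 0.000405), Col5a1 (log2 change -1.06, SE 0.110, adjusted p = 0.000829), Col6a2 (log2 change -1.18, SE 0.124, adjusted p = 0.000884) and Col3a1 (89.7 ± 12.95 FPKM in aADM2-tg and 324 ± 98.0 FPKM in WT, log2 change -1.79, SE 0.196, adjusted p = 0.000978). In FPKM, the fibrillar chains Col1a1, Col1a2 and Col3a1, a sum chosen after the values were seen, came to 165.0, 169.6, 137.0, 103.2 and 148.5 in tg1 to tg5, against 536.0, 783.8, 344.8, 450.0 and 471.1 in WT1 to WT5. Ratios to this sum within each library were set up after the values were seen and were not tested. Per 100 FPKM of the 3 chains there were 87.8 to 169 FPKM of Serpinh1 in aADM2-tg and 25.1 to 45.2 FPKM in WT. Lox, lower by itself, had 6.32 to 9.10 FPKM per 100 FPKM of chains in aADM2-tg and 3.46 to 5.20 FPKM in WT, and Pcolce 5.15 to 7.71 FPKM in aADM2-tg and 3.13 to 4.50 FPKM in WT. All 3 ratios were higher in aADM2-tg than in WT without overlap. Their shared divisor, the chain sum, was 145 ± 26.6 FPKM in aADM2-tg and 517 ± 164 FPKM in WT. A gene that falls less than these chains gives a higher ratio, so the ratios add no separate result.

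**Figure D4:**
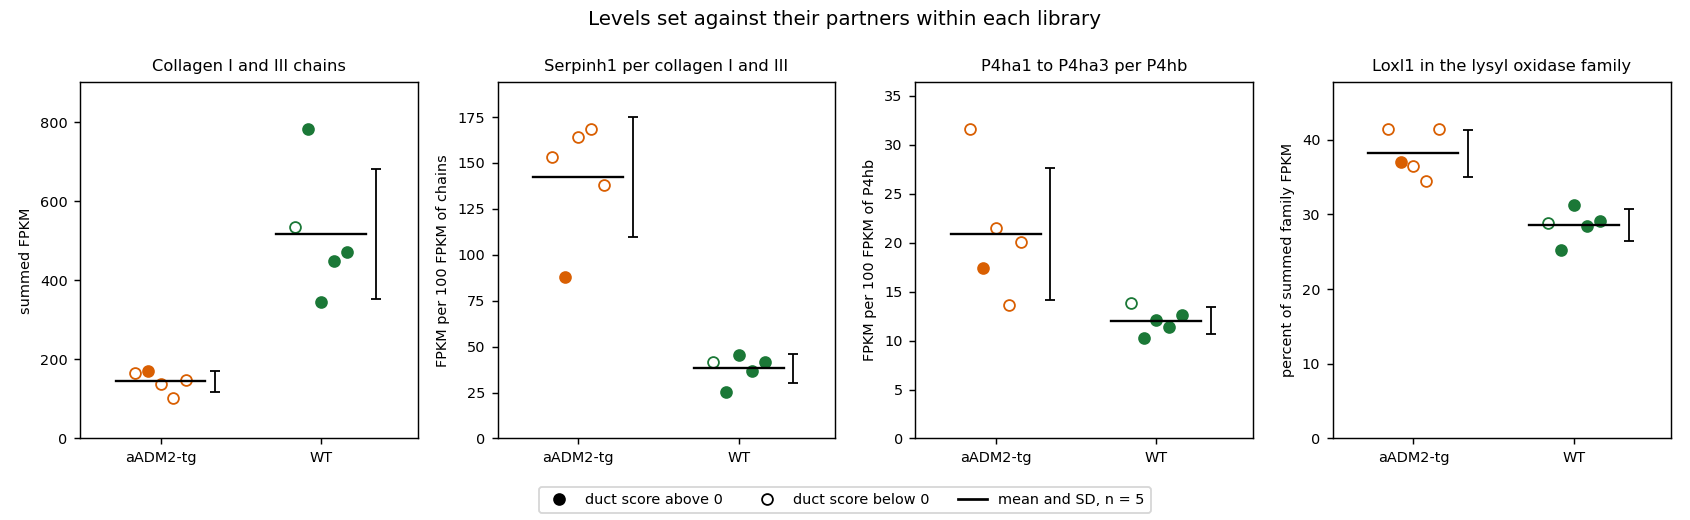
Levels within each library (points) with the mean (line) and SD (bar) of 5 libraries per group, aADM2-tg left and WT right: summed FPKM of Col1a1, Col1a2 and Col3a1, Serpinh1 FPKM per 100 FPKM of those chains, P4ha1 to P4ha3 FPKM per 100 FPKM of P4hb, and Loxl1 as a percent of lysyl oxidase family FPKM. The chain sum is lower in the 5 aADM2-tg libraries (103.2 to 169.6 FPKM in aADM2-tg and 344.8 to 783.8 FPKM in WT) and the Serpinh1 ratio higher (87.8 to 169 in aADM2-tg and 25.1 to 45.2 in WT). The chain sum is the divisor of that ratio, and Serpinh1 itself overlapped between the groups.

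Of 32 general folding and transport genes of the endoplasmic reticulum, all tested, 8 were higher and 2 lower. The other 22 were not called, and the list had a median log2 change of 0.15. Of all tested genes 13.8% were higher and 12.7% lower. Creld2, a stress-induced protein of this compartment (24.1 ± 5.67 FPKM in aADM2-tg and 14.5 ± 1.89 FPKM in WT, log2 change 0.80, SE 0.158, adjusted p = 0.00592), and Manf, a secreted stress protein (20.1 ± 4.35 FPKM in aADM2-tg and 12.9 ± 1.23 FPKM in WT, log2 change 0.70, SE 0.145, adjusted p = 0.00728), were higher, as was the coat protein gene Sec24c (log2 change 0.34, SE 0.0633, adjusted p = 0.00474). Lman1, a cargo receptor, was lower (log2 change -0.32, SE 0.0645, adjusted p = 0.00642). The count of 8 was 3 without tg1, tg3, WT2, WT4 or WT5, 4 without WT3 and 5 without tg5. Of all tested genes 1687 of 16967 (9.94%) were higher without tg1 and 1370 of 16753 without WT2.

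Of 30 genes for other steps of collagen maturation, binding and turnover 29 were tested, of which 11 were lower, 3 higher and 15 not called. Of all tested genes 12.7% were lower and 13.8% higher. The genes of this list had a median log2 change of -0.39. Adamts2, the proteinase that removes the N-terminal propeptide, was lower (9.50 ± 1.25 FPKM in aADM2-tg and 17.2 ± 2.40 FPKM in WT, log2 change -0.79, SE 0.123, adjusted p = 0.00233). Atp7a, the pump that supplies copper to secreted lysyl oxidases, was at 0.909 ± 0.476 FPKM in aADM2-tg and 3.10 ± 0.211 FPKM in WT. For Atp7a the log2 change was -1.72 (SE 0.256, adjusted p = 0.00196). Lum, a proteoglycan that binds collagen fibrils, was lower (25.8 ± 7.88 FPKM in aADM2-tg and 73.5 ± 14.9 FPKM in WT, log2 change -1.45, SE 0.174, adjusted p = 0.00111), and Timp3, a matrix-bound inhibitor of metalloproteinases, was higher (58.5 ± 12.8 FPKM in aADM2-tg and 35.8 ± 2.22 FPKM in WT, log2 change 0.77, SE 0.119, adjusted p = 0.00226).

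The differences were also fitted with duct RNA taken into account. Among the 4 aADM2-tg libraries without duct RNA, P4ha1 was lower in tg4, at 12.7 FPKM, than in WT1, at 16.5 FPKM. When a score of the 13 duct markers (their average log2 CPM) was fitted beside genotype, 11 of the 31 were lower and 2 higher, against 8.62% and 5.64% of all tested genes. The calls of P4ha1 (log2 change 0.57, adjusted p = 0.147), Plod2 (-0.38, adjusted p = 0.112), P3h3 (-0.38, adjusted p = 0.0765) and Fkbp14 (-0.25, adjusted p = 0.0569) ended, and Colgalt1 was called lower (-0.24, adjusted p = 0.0237). Without tg2 and WT1, the libraries that part from their group in duct RNA, 12 were lower and 7 higher, against 21.7% and 19.2% of all tested genes (40.9% in either direction), with Serpinh1 (0.37, adjusted p = 0.0373), Plod1, Plod3 and Crtap added to the higher ones. Loxl3 was also called lower without tg1 (-0.66, adjusted p = 0.0323), where 10.7% of all tested genes were lower and 9.94% higher, and without tg2 (-0.58, adjusted p = 0.0474), where 39.8% were called in either direction. Some cell type markers were also called, where 12.7% of all tested genes were lower and 13.8% higher. Besides the 4 of 8 macrophage markers, 5 of 10 markers of mature adipocytes were higher. The adipocyte sums overlapped, at 42388 to 57368 CPM in aADM2-tg and 39810 to 45181 CPM in WT. Of 10 fibroblast and progenitor markers 5 were lower and 1 higher. The progenitor marker Pdgfra was among the lower ones, at 5.27 FPKM in aADM2-tg and 10.03 FPKM in WT. The higher one was Ly6a, at 144 FPKM in aADM2-tg and 92.5 FPKM in WT (log2 change 0.71, adjusted p = 0.00129), without overlap. The 10 progenitor markers summed to 9155 to 10811 CPM in aADM2-tg and to 8539 to 10691 CPM in WT, with overlap. Gsn, which was not called, held 83.5 to 91.7% of these sums. The other 9 summed to 837 to 1022 CPM in aADM2-tg and to 1164 to 1407 CPM in WT, without overlap, and this sum was not tested. Of 8 endothelial markers 2 were higher (Tie1 and Emcn), with overlapping sums of 1017 to 1529 CPM in aADM2-tg and 991 to 1320 CPM in WT. Of 10 mesothelial markers 0 were called, and of 8 markers of smooth muscle and pericytes 0. RNA of male germ cells was present too: all 3 tested of 6 markers (Prm2, Odf1 and Akap4) were lower. The 6 summed to 0 to 8.35 CPM in aADM2-tg, against 127 to 161 CPM in WT2, WT3 and WT5, 8.24 CPM in WT4 and 1.27 CPM in WT1. The part of these cells in the results was not tested.

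**Figure D5:**
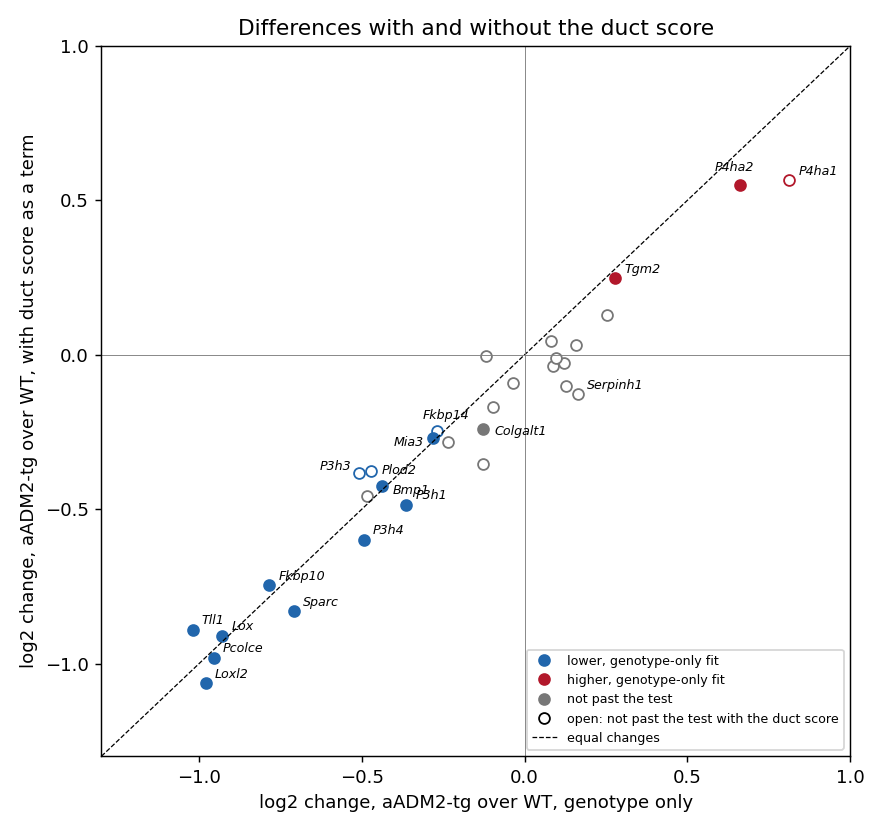
Log2 change of aADM2-tg over WT for the 31 tested genes with genotype as the only term (x axis) and with the duct score as a second term (y axis); the dashed line marks equal changes and open points did not pass the test with the score. Lox, Loxl2, Pcolce, Tll1, Sparc and Fkbp10 stay between -1.06 and -0.75 with the score, and Serpinh1 is at -0.13 with the score and at 0.16 without it.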

How the data were processed

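Poly(A)-selected RNA of 10 libraries was analysed, 5 aADM2-tg and 5 WT, grouped by the sample labels. Per the file headers, the deposited columns of counts hold unscaled reads of each gene. HISAT2 2.2.1 and HTSeq 0.6.1 are named in the submitters' processing notes. No label states a genome build, an annotation release or whether strand was used in counting. The authors' FPKM columns equal counts divided by exonic length and by each library's total of counted reads. FPKM recomputed from the counts matched within 0.01 for all 56691 genes in 6 of 7 libraries and for 56661 in WT3. The recomputed FPKM are printed for all libraries, and 3 FPKM columns whose names fit more than 1 sample were not used. For the same reason tg3, tg4 and tg5 carry the numbers in the names of their count columns, and nothing says that equal numbers mark a pair.

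Counts were fitted with edgeR 4.0.16 in R 4.3.3 (filterByExpr, TMM scaling, quasi-likelihood test, genotype as the only term, Benjamini-Hochberg adjustment over 16591 genes, threshold 0.05). The SE of a log2 change is its size over the square root of the F statistic. Interval bounds are at 95%. The 3-count floor covers counting error only, as reads that carry no molecular identifier may copy 1 molecule. The fit was tested on simulated data, where 59.2% of 98 genes changed 2-fold and 94.8% of 96 changed 4-fold were called. Of 16035 unchanged genes 6 were called. A gene that was not called may therefore still differ between the groups. The members, lists and tests were chosen with earlier results of these data known. All 32 members are accounted for, and of each other list the 4 called genes with the smallest adjusted p were named. The alternatives were DESeq2 1.42.0, its size factors in edgeR, limma-trend (limma 3.58.1) on log2 FPKM, other filters, each library left out, the replicate number as a block, the duct score, leaving out sets of libraries, and correcting each library's trend with exonic length and GC (loess, span 0.3, GC at hand for 98.5% of tested genes). Each p value of the fit sets the difference between groups against the spread between these mice within a group. Figures were drawn with matplotlib 3.10.9.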

Additional observations from a re-analysis of the deposited data

Results flagged for a closer look

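In 86 groups of 5 libraries (43 named genes in 2 groups), 4 had a library whose gap to the nearest other one exceeded Dixon's 95% critical value of 0.71 of the group's range, where chance flags about 1 group in 20. Fkbp9 had 90.5 FPKM in WT2, against 80.1 to 82.9 FPKM in the other WT libraries. Bmp1 had 10.9 FPKM in WT2, against 8.70 to 8.96 FPKM in the other WT libraries, and without WT2 its log2 change was -0.40 (adjusted p = 0.0362). Col3a1 had 67.2 FPKM in tg4, against 92.0 to 98.5 FPKM in the other aADM2-tg libraries. Lum had 39.6 FPKM in tg2, against 20.8 to 25.0 FPKM in the other aADM2-tg libraries.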

How the results depend on the processing

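DESeq2, DESeq2's size factors and the replicate block kept all 16 calls among the collagen-modifying genes. The deviations of libraries with equal replicate numbers had correlations of 0.485, 0.674, -0.385, -0.255 and 0.04. For tg1 and tg2 the most correlated WT library had the same number, and for tg3 to tg5 it was WT1. Duct RNA was also low in tg1 and WT1 and high in tg2 and WT2, so these values cannot settle pairing. The block left 13 of the 31 tested genes lower and 3 higher, where 2114 of all 16591 tested genes were lower and 1853 higher. Leaving out the 5 libraries with duct RNA sets 4 aADM2-tg libraries against 1 WT library, which is assumed to vary like them. Directions kept there by the 16 called genes are no separate result. This fit reuses libraries that gave their calls, so agreement in direction was largely fixed beforehand. It left 0 genes lower and 0 higher, while 16 of 16 kept their direction, with 4 collagen chains lower. Of the folding and carrier genes of the endoplasmic reticulum 0 were then lower and 0 higher, of the genes of maturation and turnover 2 lower and 0 higher, and of all genes 34 lower and 1 higher. Without WT1 and tg2, 12 of the 31 tested collagen-modifying genes were lower and 7 higher. Of all genes in that fit 3622 (21.7%) were lower and 3195 (19.2%) higher. The least-squares correction for length and GC left 8 of the collagen-modifying, 0 of the folding and carrier, 7 of the maturation and turnover and 864 of all genes lower. With limma-trend on either pseudocount, 4 folding and carrier genes were lower and 4 higher. Of all 13264 genes in that fit 2031 were lower and 1738 higher with a pseudocount of 1. With a pseudocount of 0.1 these counts were 2016 and 1729. At a mean of at least 10 CPM 4 folding and carrier genes were lower, where 18.9% of all genes were. With the duct score, 4 of the folding and carrier genes, 1 of the maturation and turnover genes and 935 of all genes were higher. Leaving out 1 library at a time gave 3 to 11 higher folding and carrier genes, 1609 to 3629 lower and 1370 to 3050 higher of all genes, and 11 to 14 lower and 2 to 3 higher of the collagen-modifying genes. The calls lost in these fits were those of P4ha1, P3h4 and Plod2. Limma-trend lost P4ha1, no filter lost P3h4, and Tll1 or P3h4 fell under the other filters.

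Direction turned for 8 genes that were not called. With the duct score the log2 change was -0.026 for Plod1, -0.1 for Plod3, -0.128 for Serpinh1, -0.035 for Fkbp7 and -0.01 for Pcolce2. Leaving out the libraries with duct RNA gave -0.06 for Plod1, -0.035 for Plod3, -0.114 for Serpinh1 and -0.197 for Pcolce2, and leaving out WT1 and tg2 gave 0.061 for Loxl4 and 0.009 for P4hb. The robust correction gave -0.032 for Crtap. Leaving out 1 library ranged from -0.042 to 0.14 for Fkbp7 and from -0.013 to 0.169 for Pcolce2. The called carrier gene Lman1 turned to 0.006 under the least-squares correction. The causes were not tested.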
